A study of Mus musculus with 6 samples.

Results

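The Bcl2 family is the group of proteins that sets whether a cell dies by the mitochondrial route of apoptosis, and 10 of its genes were examined in sorted osteoblast lineage cells of the mouse calvaria. The genes were chosen by name and by the role of their proteins, at a time when earlier results of these data were known: *Bcl2*, *Bcl2l1* (Bcl-xL), *Bcl2l2* (Bcl-w) and *Mcl1* for survival, *Bax* and *Bak1* as effectors of death, and *Bid*, *Bcl2l11* (Bim), *Bbc3* (PUMA) and *Pmaip1* (Noxa) as activators or sensitizers of death. They are 10 of the 16593 genes named on the array. At least 1 probe was found for 9 of them, 27 of the 25697 probes in all, and no probe was named *Bax*.

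The 6 Illumina BeadChip arrays hold RNA from cultured calvaria cells of C57BL/6 mice a few days old, sorted for GFP. Per the study, 3 arrays are from ERα f/f;GFP:Osx1-Cre mice (ERα deleted) and 3 from GFP:Osx1-Cre mice (control). Both groups carry the same Cre and GFP transgene, driven by the promoter of *Osx1* (*Sp7*), a transcription factor of the osteoblast lineage, so that ERα, the estrogen receptor encoded by *Esr1*, was removed only in cells that used this promoter. The sample labels name the same groups of 3 as *Mmp13* knockout and wild type. Every difference given is that of the arrays labelled knockout over those labelled wild type. *Mmp13*, which encodes a collagenase, was higher on the arrays labelled as its knockout, with log2 levels of 12.41, 12.91 and 12.79 against 8.91, 9.42 and 9.73 for its brightest probe (log2 difference 3.35, limma adjusted p = 0.00048). Neither of the 2 *Esr1* probes was detected on any array (detection p from 0.164 to 0.984), so the deletion of ERα could not be checked with these data. Whether the 3 arrays of a group represent separate cultures or animals is not stated in the sources used here. The p-values therefore reflect only how far these arrays differ from each other, and that spread may be technical.

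In mammalian cells the survival members hold the effectors in check at the mitochondrial outer membrane, and the BH3-only members release or trigger them when a cell is stressed. Once BAX or BAK opens the membrane, cytochrome c leaves the mitochondrion and caspases are activated. In bone, loss of this balance toward survival or toward death changes how long osteoblasts and osteocytes last, and estrogens are known as hormones that act on the lifespan of bone cells. Much of the control of these proteins lies after transcription, by cleavage, phosphorylation and degradation, which an array does not measure.

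*Bcl2l2* and *Bbc3* were the members that passed a limma adjusted p of 0.05 by their brightest probe, with limits given below. A second *Bbc3* probe did not share the difference. The reference sequence around the transcription start sites of both genes is shown because of these calls. Each window runs from 250 bases before a start to 50 bases after it (RefSeq, GRCm38.p6, 5′ to 3′ on the strand of the gene). Both genes lie on the plus strand, *Bcl2l2* at chr14:54883175-54883474 and the most upstream of 3 *Bbc3* windows at chr7:16309333-16309632. Capitals mark the estrogen receptor half-site GGTCA and the GC box GGGCGG, each on either strand.
Bcl2l2: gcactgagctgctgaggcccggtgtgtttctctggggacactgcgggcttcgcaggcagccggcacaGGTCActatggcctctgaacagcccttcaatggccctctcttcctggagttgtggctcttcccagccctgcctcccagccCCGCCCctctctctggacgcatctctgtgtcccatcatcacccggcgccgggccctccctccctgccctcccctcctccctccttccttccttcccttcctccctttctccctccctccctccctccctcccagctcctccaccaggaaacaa
Bbc3: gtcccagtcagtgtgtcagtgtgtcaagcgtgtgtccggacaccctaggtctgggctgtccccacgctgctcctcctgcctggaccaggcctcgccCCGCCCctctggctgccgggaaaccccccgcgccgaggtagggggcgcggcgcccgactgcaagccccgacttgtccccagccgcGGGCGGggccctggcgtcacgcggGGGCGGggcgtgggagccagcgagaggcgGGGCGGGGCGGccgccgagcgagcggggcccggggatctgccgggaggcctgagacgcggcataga
The *Bcl2l2* window holds 1 GGTCA and 1 GC box, and the *Bbc3* window holds 5 GC boxes, some of which share a base, and no GGTCA. The full palindromic element GGTCANNNTGACC, which contains the half-site at each end, was found in 0 of the 14 windows of 9 member genes and in 0.07% of all 32851 windows. GGTCA was found in 5 of the 14 (35.7%, against 40.5% of all windows), and the GC box in 10 of the 14 (71.4%, against 35.7%). The forkhead site GTAAACA was present in 2 windows, 1 of *Bcl2l11* and 1 of *Bbc3* (14.3%, against 3.65% of all windows). The E2F site TTTCGCGC was present in 1 window of *Bcl2l1* (7.14%, against 0.323%). The p53 half-site was present in 1, that of *Bax* (7.14%, against 8.36%). These 3 shares rest on 1 or 2 matches each, too few to compare with all windows. *Pmaip1* is not among the 9 genes because member windows on its chromosome were left out, while the count over all windows kept that chromosome. These matches describe letters within 300 bases and do not show that a factor binds.

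Detection decided which members could be compared. A probe was called detected on an array when its detection p, the chance of such a signal among the array's negative controls, was under 0.01, and it was tested when this held on at least 3 of the 6 arrays. Of the 27 member probes, 13 were tested, representing 8 genes, and the other 14 were detected on no array. 8 probes were detected on all 6 arrays. Over the whole array, 11089 probes passed the same filter, and 40.2 to 43.6% of probes were detected per array.

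**Figure D1:**
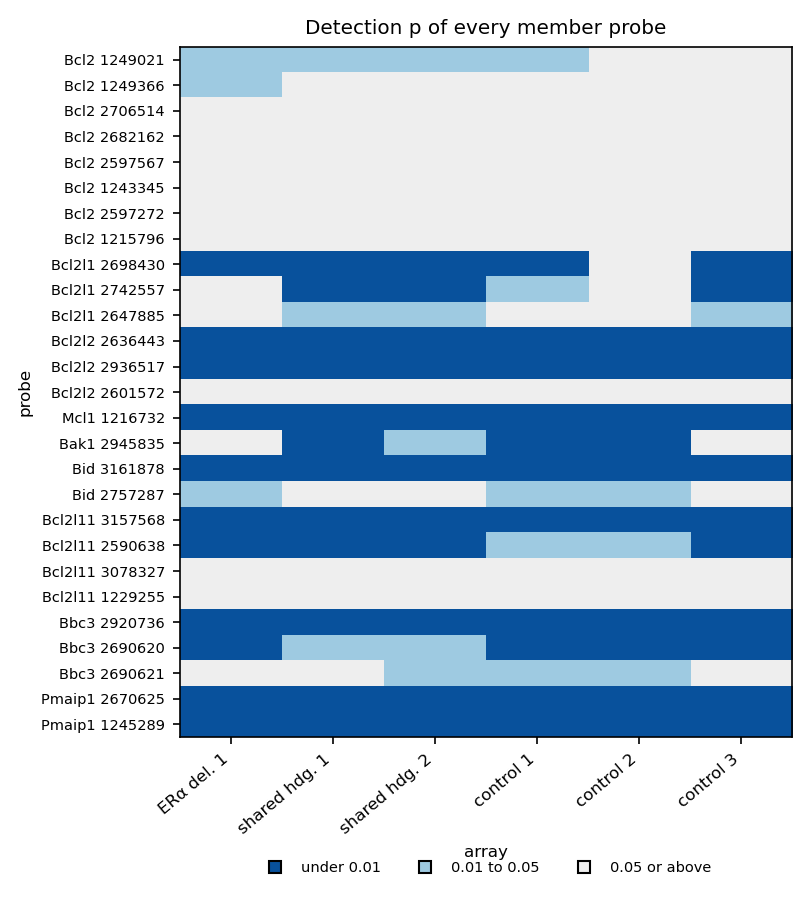
Detection p of the 27 probes of the Bcl2 family genes (vertical axis, gene and probe number) on each of the 6 arrays (horizontal axis; ERα deleted arrays 2 and 3 are marked by the heading, "hdg.", that they share). Dark blue is a detection p under 0.01, light blue 0.01 to 0.05 and grey above, and all 8 *Bcl2* probes lack dark blue.

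Taken as genes, with the brightest probe standing for each, 2 of the 8 tested members passed an adjusted p of 0.05 (limma, Benjamini-Hochberg over all probes tested), 1 lower and 1 higher. That is 25%, beside 19.5% of all 7695 tested genes (9.93% lower and 9.62% higher). Taken as probes, 3 of 13 passed (23.1%, beside 18.1% of all tested probes), 2 lower (beside 9.22% of all) and 1 higher (beside 8.86%). The arrays of the groups did not overlap for 4 of the 13 member probes (30.8%), beside 42.4% of all tested probes. These shares were close to those of the array as a whole. The median log2 difference of the 8 genes was -0.24, against -0.04 over all genes tested. In these bulk samples fewer cells of a type and less RNA per cell cannot be told apart.

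**Figure D2:**
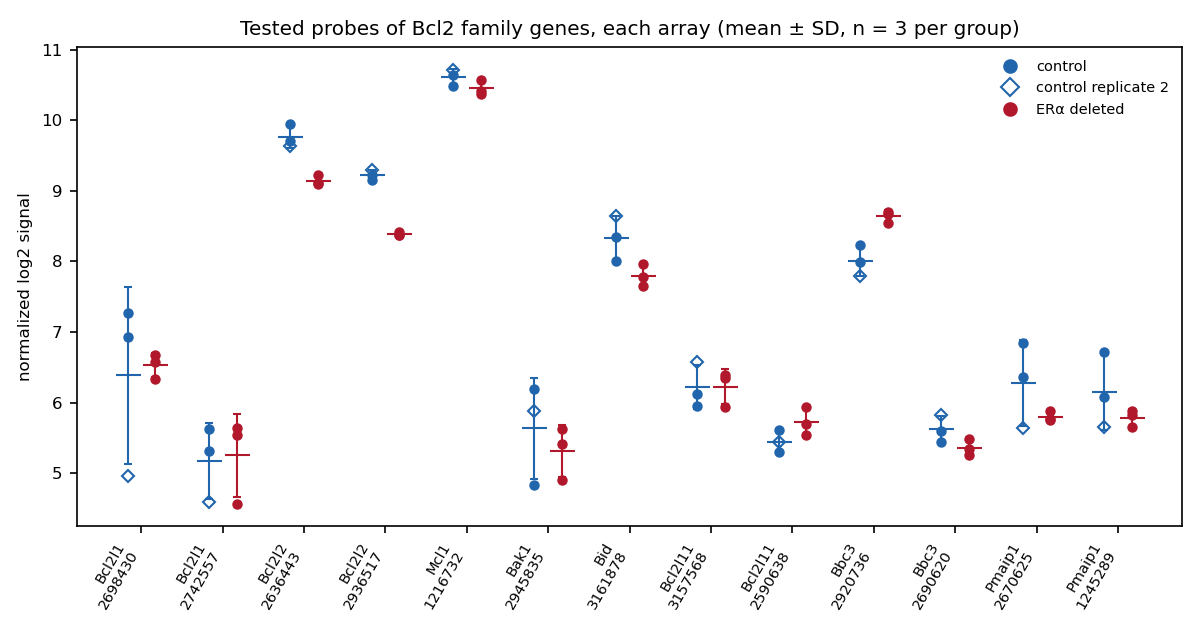
Normalized log2 signal (vertical axis) of the 13 tested probes (horizontal axis, gene and probe number) on each array. Red points are the 3 ERα deleted arrays, blue the 3 control arrays with replicate 2 as an open diamond, and bars give the mean and SD; the groups are apart for both *Bcl2l2* probes, 1 *Bid* probe and 1 *Bbc3* probe.

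Among the survival members, *Bcl2l2* was lower in ERα deleted cells by both of its detected probes. Bcl-w, its product, binds and restrains the effectors as Bcl-2 does. The brightest probe (ILMN_2636443) had log2 levels of 9.22, 9.10 and 9.11 on the ERα deleted arrays and of 9.71, 9.64 and 9.95 on control arrays 1, 2 and 3. The mean was 9.14 ± 0.06 (SD, n = 3) against 9.77 ± 0.16, a log2 difference of -0.63 (SE 0.12, 95% interval -0.91 to -0.34, limma adjusted p = 0.016), which is 1.54-fold higher in control cells. All 3 ERα deleted arrays lay below all 3 control arrays. The same order was present in the scanner signals before any normalization, with 444.7, 698.5 and 616.8 units against 931.7, 1057.3 and 1017.8. The ERα deleted arrays were also dimmer as a whole, with median signals of 85.1, 95.7 and 95.3 units against 96.9, 98.7 and 108.9. The order of the unscaled signals is therefore not separate from array brightness.

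The other *Bcl2l2* probe (ILMN_2936517) had log2 levels of 8.37, 8.41 and 8.37 in ERα deleted cells against 9.23, 9.30 and 9.15 in controls. The arrays of each group lay close together, and the groups were far apart relative to that spread. The log2 difference was -0.84 (SE 0.10, 95% interval -1.08 to -0.61, limma adjusted p = 0.0024), a level 1.79-fold higher in control cells. The difference between the probes did not itself differ between groups beyond the spread (-0.22 on the log2 scale, two-sided exact permutation p = 0.3). With 3 arrays against 3 the smallest p this test can give is 0.1. Another probe (ILMN_2601572) was not detected on any array. *Bcl2l2* overlaps no other gene of the RefSeq table. The call of ILMN_2936517 held with each array left out in turn (log2 differences of -0.88 to -0.80). That of ILMN_2636443 was lost without ERα deleted array 1, 2 or 3 (adjusted p of 0.051, 0.072 and 0.077) and without control array 1 (0.061), with log2 differences of -0.69 to -0.53 over the 6 omissions.

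*Mcl1*, whose short-lived protein guards many cell types and is essential to several, showed no difference that passed the test. Its single probe (ILMN_1216732) read 10.57, 10.37 and 10.41 in ERα deleted cells and 10.64, 10.71 and 10.48 in controls on the log2 scale. The lowest control array fell between the ERα deleted arrays. The log2 difference of -0.16 (SE 0.11, adjusted p = 0.35) had a 95% interval of -0.43 to 0.11, which leaves a fall of up to that size possible.

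*Bcl2l1* encodes Bcl-xL, the survival member that keeps BAX away from mitochondria, and by alternative splicing a short form that favours death. The brightest probe (ILMN_2698430) had log2 levels of 6.67, 6.34 and 6.58 in ERα deleted cells and of 7.27, 4.96 and 6.93 in controls. Control array 2 was far below every other array, and the probe was not detected there (detection p 0.0727). With all arrays the log2 difference was 0.14 (SE 0.57, 95% interval -1.22 to 1.5, adjusted p = 0.87). Without control array 2 it was -0.56 (adjusted p = 0.041), so the direction rested on that array. Control array 2 also held the most probes far from their group, 150 probes over 2 log2 units from the mean of the other 2 arrays, against 79 on control array 3, 6 on control array 1 and 0 on the ERα deleted arrays.

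The second tested *Bcl2l1* probe (ILMN_2742557) was close to the detection limit, with log2 levels of 4.57, 5.55 and 5.64 against 5.31, 4.59 and 5.63. One array of each group was low, and the log2 difference of 0.08 (SE 0.37) did not pass the test (adjusted p = 0.90). The remaining probe (ILMN_2647885) was detected on no array. Whether these probes read the long or the short form was not determined, and *Bcl2l1* overlaps *Cox4i2* in the RefSeq table.

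*Bcl2*, the founding member of the family, could not be measured. None of its 8 probes was detected on any array, with detection p-values from 0.0113 to 0.995 and scanner signals of 65.2 to 108.7 units, while the median signal of an array was 85.1 to 108.9 units. The probe nearest detection (ILMN_1249021) had detection p-values of 0.0138, 0.0238 and 0.0113 in ERα deleted cells and of 0.0363, 0.0890 and 0.0777 in controls. Its log2 difference under a looser filter (detection p under 0.05) was 0.27 (SE 0.12, adjusted p = 0.17). A difference in *Bcl2* was thus not detectable at this signal, and its transcript is not shown to be absent.

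Of the effectors, *Bax* was not measured and *Bak1* was near the detection limit. BAK sits in the outer mitochondrial membrane, where it forms pores with or without BAX. The *Bak1* probe (ILMN_2945835) was detected on 1 ERα deleted array and 2 control arrays. Its log2 levels were 4.91, 5.63 and 5.41 in ERα deleted cells against 6.20, 5.88 and 4.83 in controls. The lowest control array was below every ERα deleted array and the others were above. The log2 difference was -0.32 (SE 0.37, 95% interval -1.21 to 0.56, adjusted p = 0.56), and *Bak1* lies where *Ggnbp1* is also annotated.

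Among the BH3-only genes, *Bbc3* was higher in ERα deleted cells by its brightest probe. PUMA, its product, binds all the survival proteins and is known as a target of p53 and of FOXO factors. The probe ILMN_2920736 had log2 levels of 8.70, 8.54 and 8.67 in ERα deleted cells and of 7.99, 7.80 and 8.23 in controls. Every ERα deleted array was above every control array. The mean was 8.64 ± 0.09 (SD, n = 3) against 8.01 ± 0.22, a log2 difference of 0.63 (SE 0.14, 95% interval 0.30 to 0.96, limma adjusted p = 0.025), or 1.54-fold.

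This rise depended on how the arrays were scaled to each other and on single arrays. In scanner units the *Bbc3* signals were 326.2, 490.9 and 472.5 against 325.4, 339.0 and 361.9, so that before normalization ERα deleted array 1 lay within the control range. That array was also the dimmest as a whole, with a median signal of 85.1 units against 96.9 to 108.9 on control arrays. With each array scaled to its median in place of quantile normalization the log2 difference was 0.44 (adjusted p = 0.25), and the median of all probes then lay at -0.17. The call was also lost without ERα deleted array 1, 2 or 3 (adjusted p of 0.092, 0.072 and 0.10) and without control array 1 (0.092). The log2 difference stayed between 0.52 and 0.74 with any 1 array left out.

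A second *Bbc3* probe (ILMN_2690620) did not share the rise. Its log2 levels were 5.49, 5.34 and 5.26 against 5.45, 5.83 and 5.60, and it was detected on 1 ERα deleted array and on all 3 control arrays. The log2 difference was -0.26 (SE 0.14, adjusted p = 0.22). It was not detected on ERα deleted arrays 2 and 3 (detection p 0.0113 and 0.015), so its level there is only a bound. The brighter probe exceeded this probe by 3.21, 3.19 and 3.41 log2 units in ERα deleted cells against 2.54, 1.97 and 2.64 in controls. That gap was 0.89 larger in ERα deleted cells (two-sided exact permutation p = 0.1, the smallest this test can give), and it rests partly on those bounds. The remaining *Bbc3* probe (ILMN_2690621) was detected on no array. Under the looser filter its log2 difference was -0.38 (SE 0.17, limma adjusted p = 0.18), also without a rise. Which transcripts of *Bbc3* each probe reads was not determined here.

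*Bid* encodes the BH3-only protein that caspase-8 cleaves to carry a death receptor signal to the mitochondrion. Its probe ILMN_3161878 had log2 levels of 7.78, 7.96 and 7.65 in ERα deleted cells against 8.01, 8.64 and 8.34 in controls. The groups did not overlap, with control array 1 just above the highest ERα deleted array. The log2 difference of -0.53 (SE 0.18, 95% interval -0.97 to -0.10) did not pass the test after adjustment (limma adjusted p = 0.091), nor with any 1 array left out (adjusted p from 0.067 to 0.26). The other *Bid* probe was not detected on any array.

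*Bcl2l11* and *Pmaip1* did not pass the test by any of their probes. Bim, the product of *Bcl2l11*, binds all the survival proteins and activates the effectors, and Noxa mainly binds Mcl-1. For *Bcl2l11* the brightest probe (ILMN_3157568) read 6.35, 6.39 and 5.94 against 6.13, 6.57 and 5.96, with full overlap and a log2 difference of 0.00 (SE 0.20, 95% interval -0.48 to 0.48). A second probe (ILMN_2590638), detected on all 3 ERα deleted arrays and 1 control array, had a log2 difference of 0.27 (SE 0.14, adjusted p = 0.22), and the other 2 were detected on no array. The annotated region of *Bcl2l11* overlaps that of *Acoxl*.

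The 2 *Pmaip1* probes followed each other closely across arrays. The brighter (ILMN_2670625) had log2 levels of 5.88, 5.75 and 5.77 in ERα deleted cells against 6.36, 5.64 and 6.84 in controls. Control array 2 was the lowest of all 6 and the other control arrays were the highest, so the groups overlapped through that array alone. The log2 difference was -0.48 (SE 0.29, adjusted p = 0.27) with all arrays and -0.77 (adjusted p = 0.015) without control array 2. The other probe (ILMN_1245289) gave -0.36 (SE 0.26, adjusted p = 0.36), and -0.59 (adjusted p = 0.07) without control array 2.

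**Figure D3:**
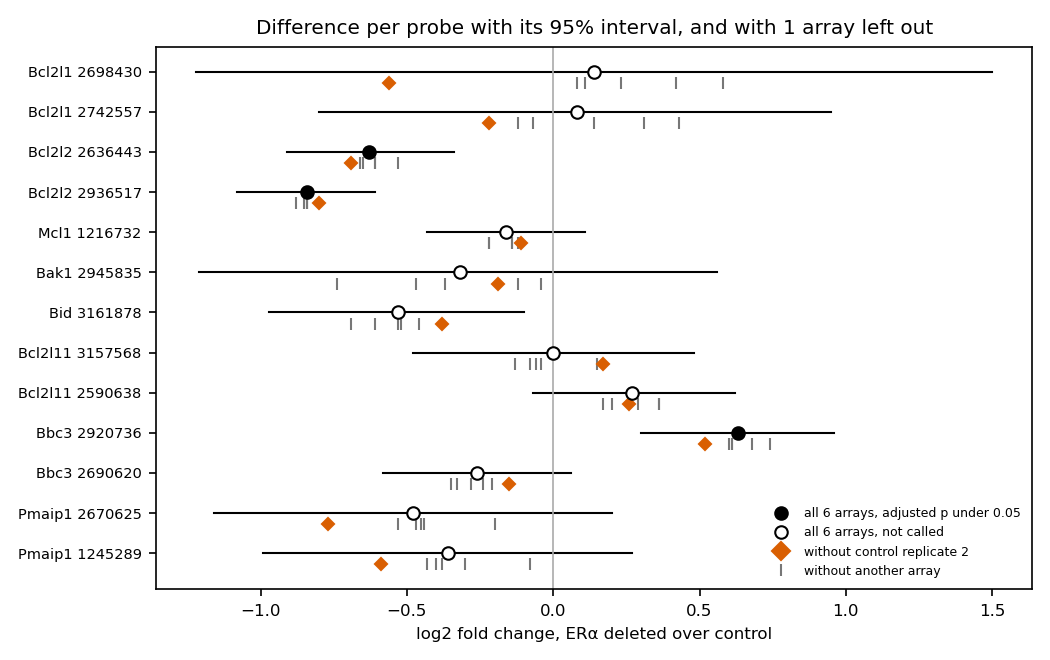
Log2 difference, ERα deleted over control (horizontal axis), of each tested probe (vertical axis) with its 95% interval; filled circles passed an adjusted p of 0.05. Marks below each circle give the difference with 1 array left out, an orange diamond without control replicate 2; that diamond lies on the other side of 0 from the circle for both *Bcl2l1* probes.

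Of 6 tested genes of the extended family, *Bok*, an effector-like relative of BAX and BAK, was higher, and *Bcl2l13*, an outer membrane protein also known as a mitophagy receptor, was lower (33.3% called, beside 19.5% of all genes). *Bok* had log2 levels of 9.73, 9.61 and 9.49 against 9.29, 9.09 and 8.97, with no overlap (log2 difference 0.49, SE 0.13, adjusted p = 0.040). Leaving out any of the 6 arrays ended that call, with adjusted p-values of 0.051 to 0.13. *Bcl2l13* had log2 levels of 7.48, 7.38 and 7.16 against 7.79, 7.88 and 7.71 (log2 difference -0.46, SE 0.12, adjusted p = 0.046). Only without control array 3 did it still pass, and with each other array left out the adjusted p reached up to 0.16. Median scaling ended the calls of both genes, array weights that of *Bok*, and cyclic loess, no filter, the looser filter and the replicate block that of *Bcl2l13*. *Bad*, whose product binds Bcl-2 and Bcl-xL when growth factor signals are low, had a log2 difference of -0.39 (adjusted p = 0.11). The BH3-only genes *Bik*, *Bmf* and *Hrk* and the family genes *Bcl2a1c* and *Bcl2a1d* were detected on no array.

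In the list of caspases, apoptosome genes and mitochondrial death factors, which also holds caspases that act apart from the mitochondrion, 4 of 12 tested genes were higher and 0 lower (33.3%, beside 19.5% of all genes, median log2 difference 0.16), and also 0 lower at an unadjusted p under 0.05. With 1 array left out 1 to 4 were higher, and 1 was lower without control array 3. *Casp1*, which encodes an inflammatory caspase, had log2 levels of 6.65, 7.03 and 6.60 against 5.76, 5.47 and 5.47 (log2 difference 1.20, SE 0.16, adjusted p = 0.0040), and passed with every array left out. The initiator caspase genes *Casp2* (0.50, adjusted p = 0.019) and *Casp9* (0.46, adjusted p = 0.027) and *Aifm1*, which encodes a mitochondrial flavoprotein (0.46, adjusted p = 0.029), were higher by less. These 3 no longer passed without ERα deleted array 1, 2 or 3 or control array 1 (highest adjusted p 0.084 for *Casp2* and 0.12 for *Casp9* and *Aifm1*), nor with median scaling. *Apaf1*, the scaffold of the apoptosome, had a log2 difference of 0.19 (adjusted p = 0.32) and *Diablo*, which relieves caspase inhibition, one of 0.00.

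Of the inhibitor of apoptosis genes only *Birc5* and *Birc2* could be tested. *Birc5*, which encodes survivin, a protein of mitosis as well as of survival, had log2 levels of 10.26, 10.17 and 10.23 against 8.48, 8.07 and 8.50. The log2 difference was 1.87 (SE 0.14, adjusted p = 0.00059), 3.66-fold higher in ERα deleted cells, and passed with every array left out. The mean log2 level of 5 proliferation markers also lay higher in ERα deleted cells, at 8.90 to 8.98 against 7.76 to 7.99. Of the 5 markers 3 were called higher (60%, beside 19.5% of all genes). The part of proliferation in the *Birc5* difference was not tested. *Birc2* had a log2 difference of 0.08 (adjusted p = 0.64). *Xiap*, the main direct caspase inhibitor, was not detected by any of its 3 probes.

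Of 10 tested genes of the death receptor route 2 were higher and 2 lower (40%, beside 19.5%). With 1 array left out 0 to 2 were higher and 0 to 4 lower, with 0 lower without ERα deleted array 2 or 3 or control array 1 and 4 without control array 3. Array weights and a trended, robust fit also gave 4 lower. *Mlkl*, the executor of necroptosis, was higher (log2 levels 9.74, 9.93 and 10.01 against 9.23, 9.10 and 9.22, log2 difference 0.71, adjusted p = 0.0085). Without ERα deleted array 3 its adjusted p was 0.052. *Fadd*, the adaptor that recruits caspase-8, was higher by 0.43 (adjusted p = 0.049), a call that held only without control array 3. *Tnfrsf12a* (-0.76, adjusted p = 0.011) and *Tnfrsf21* (-0.90, adjusted p = 0.038), which encode receptors of the tumor necrosis factor family, were lower. The *Tnfrsf12a* call was lost without ERα deleted array 2 or 3 or control array 1 (adjusted p up to 0.062), and the *Tnfrsf21* call without any 1 ERα deleted array or control array 1 (up to 0.13). The *Mlkl* and *Fadd* calls were also lost with median scaling. The *Fadd* call was lost with no filter, the looser filter and the replicate block, and that of *Tnfrsf21* with no filter and the replicate block. *Fas* had a log2 difference of 0.00.

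Among 17 tested genes listed as targets of p53, 0 were higher and 3 lower (17.6%, beside 19.5%), with a median log2 difference of -0.24. This list leaves out the Bcl2 family members. *Bbc3*, described above as a p53 target, was called higher by its brightest probe and not by its second, and is not counted here. The number lower was 6 without control array 2 and 0 without ERα deleted array 3, and 2 or 3 without any other array. At an unadjusted p under 0.05, 0 were higher and 4 lower. *Trp53* itself was named by no probe. *Mdm2*, which encodes the ligase that degrades p53, had log2 levels of 10.92, 10.73 and 10.76 in ERα deleted cells against 11.40, 11.55 and 11.55 in controls (log2 difference -0.70, SE 0.11, adjusted p = 0.0075). *Zmat3* (-0.79, adjusted p = 0.0087), an RNA-binding protein gene, and *Plk2* (-0.58, adjusted p = 0.023), a kinase gene, were lower as well. Without ERα deleted array 3 the adjusted p of *Mdm2* was 0.05 and that of *Zmat3* 0.052. The *Plk2* call was lost without any 1 ERα deleted array or control array 1 (up to 0.092) and with median scaling. *Cdkn1a*, the cell cycle inhibitor gene most used as a p53 readout, had a log2 difference of -0.28 (adjusted p = 0.19).

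Of 17 tested genes that act upstream of the family 11.8% passed, beside 19.5% of all genes. *E2f1*, a cell cycle transcription factor gene, was higher (0.35, adjusted p = 0.048) and *Bag2*, a chaperone partner gene, lower (-0.61, adjusted p = 0.027). The *E2f1* call held only without control array 3, and the *Bag2* call was lost without ERα deleted array 2 or 3 or control array 1 (adjusted p up to 0.11). Both were lost with median scaling and with the replicate block, and the *E2f1* call with the looser filter as well. None of the 15 tested genes for outer membrane channels and mitochondrial fission and fusion passed the limma test with all arrays (0%, beside 19.5%). Among these 15 genes 1, *Tmbim6*, had an unadjusted p under 0.05, and the median log2 difference was 0.05. With array weights, and without control array 3, 1 gene of this list was higher.

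**Figure D4:**
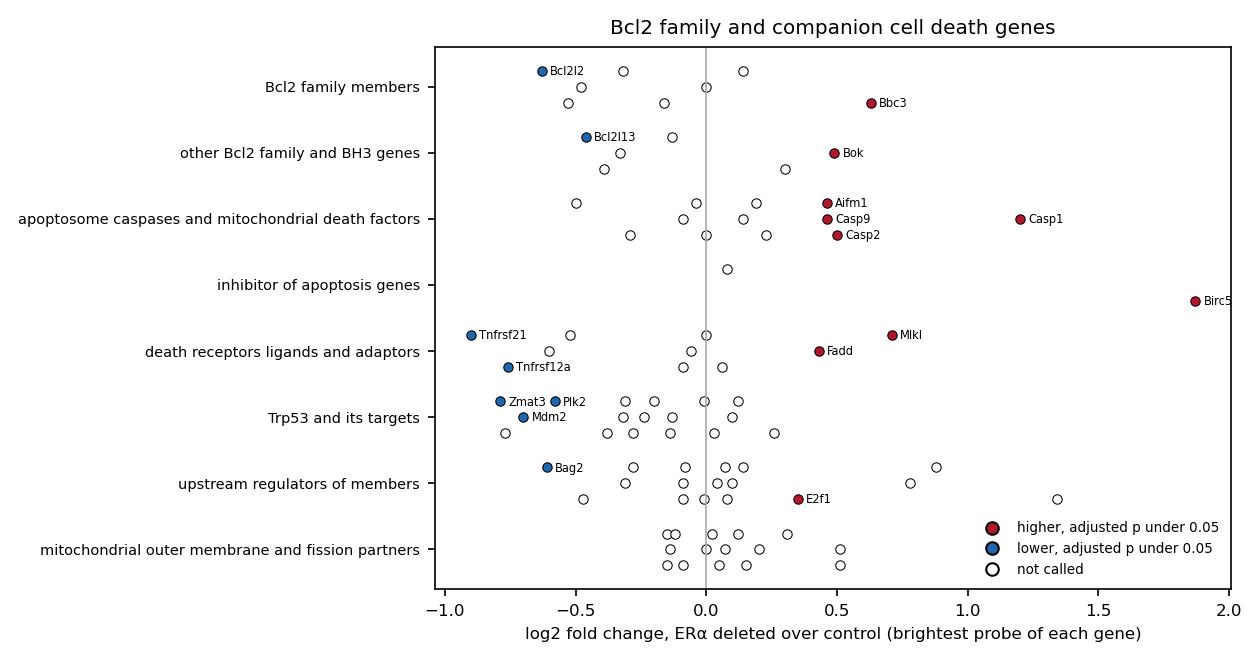
Log2 difference, ERα deleted over control (horizontal axis), of the brightest probe of each tested gene in the Bcl2 family and 7 companion lists (vertical axis; the vertical offset within a list has no meaning). Red and blue points passed an adjusted p of 0.05 as higher or lower and are named, and open points did not; *Birc5* at 1.87 and *Casp1* at 1.20 lie farthest to the right among the named genes.

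Markers of other cells also differed between the groups. Of 10 tested macrophage and osteoclast markers 9 were lower in ERα deleted cells (90%, beside 19.5% of all genes). The exception was *Ctsk*, with a mean log2 level of 12.16 against 12.04 (log2 difference 0.12, limma adjusted p = 0.40). Its ERα deleted arrays all lay above the control arrays, so the fall was not shared by every marker of the list. The mean log2 level of the 10 was 6.65 to 6.90 against 8.25 to 8.54. *Tyrobp*, counted among the 9, was detected on 0 of the 3 ERα deleted arrays and passed the detection filter only through the control arrays. *Ctss*, *Coro1a* and *Cd52*, also among the 9, were detected on 1 ERα deleted array each and on all 3 control arrays. The share of 90% thus rests partly on markers that the control arrays alone carried past the filter. *Itgam*, *Ptprc*, *Aif1* and *Acp5* were detected on fewer than 3 arrays and not tested. Of 6 tested osteoblast markers 3 were higher and 1, *Sp7*, lower (66.7% called, beside 19.5% of all genes). The mean log2 level of the 6 was 9.82 to 9.85 against 9.01 to 9.34. *Ibsp*, counted among the 3, was detected on 0 of the 3 control arrays. It passed the detection filter only through the ERα deleted arrays. No endothelial or erythroid marker could be tested, and the single lymphocyte marker tested, *Cd3e*, did not pass. The part of these markers in the differences of *Bcl2l2*, *Bbc3* and the companion genes was not tested.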

How the data were processed

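The authors read the arrays (MouseRef-8) with an Illumina BeadArray reader and deposited BeadStudio intensity values, each with a detection p-value, and a table of log2 values that they had normalized by quantiles with lumi (version not given in the sources used here). Groups come from the sample labels and their names from the study. The scanner intensities of 2 ERα deleted arrays carry the same heading, so ERα deleted arrays are numbered 1, 2 and 3 in the order of that table and were used by group. All 25697 probes were linked one to one between the deposited tables by their ranks on 4 arrays named in both. 0 columns of per-sample values were left unused. 23978 probes had 1 gene in the platform annotation, updated through the RefSeq gene table (GRCm38.p6), and 1719 had none listed.

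Background correction and quantile normalization of the intensities were done by neqc (limma 3.58.1 under R 4.3.3), which drew the statistics of the negative controls from the detection p-values. Its offset was 16, which makes fold changes of dim probes too small. The 11089 probes detected (p under 0.01) on 3 or more arrays were tested with lmFit and eBayes, with Benjamini-Hochberg adjustment across them. The fit was tested on simulated data. The number of arrays, 3 per group, limits the precision.

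All 10 members were named, and each tested probe was described. Of each companion list, genes past an adjusted p of 0.05 whose groups do not overlap were named, up to 5 by size of difference. Other named genes were chosen after their values were seen. The lists were the other family members, caspases and death factors, inhibitors of apoptosis, death receptor genes, p53 targets, upstream regulators and mitochondrial partners, with markers of macrophages and osteoclasts, lymphocytes, endothelial and erythroid cells, osteoblasts and proliferation. The members, lists and alternatives were chosen with earlier results of these data known. Alternatives were other background corrections, scalings, filters and fits, the deposited log2 table, a replicate block and leaving out each array.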

Additional observations from a re-analysis of the deposited data

How the results depend on the processing

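With all arrays kept, *Bcl2l2* passed the test as lower under all 12 alternatives and *Bbc3* as higher under 11 of 12, the exception being median scaling (0 members higher). The 12 are not separate checks. Fits without background correction and on the deposited log2 table each gave 1074 probes higher and 1055 lower. Changes of filter alone left the log2 differences of these 2 genes as they were. With 1 array left out, 0 to 1 members were higher and 0 to 3 lower, and the number of probes called over the whole array also moved, from 6.69 to 31.4% of those tested. Without control array 2, *Bcl2l1* and *Pmaip1* were called lower as well. The first *Bcl2l1* probe turned to -0.30 with array weights and to -0.56 without control array 2. The second turned to -0.07 and -0.12 without ERα deleted array 2 or 3 and to -0.22 without control array 2. Over the 6 omissions these probes ranged from -0.56 to 0.58 and from -0.22 to 0.43. The cause was not tested. Of 229 probe values recomputed, 214 kept their side of the threshold with no change of sign at 2 decimals, apart from *Bcl2l11* ILMN_3157568, which at 0.00 had no direction and ranged from -0.13 to 0.17.

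Arrays of the same number had deviations from their group means with correlations of 0.11, -0.055 and -0.05. With 3 arrays per group these correlations cannot show whether such arrays share more than a number, and the labels do not say. A replicate block, fitted on the deposited log2 table, whose columns carry the numbers, gave 1 member higher and 1 lower, and 718 probes higher and 613 lower, against 1074 and 1055 on that table without the block. The block changed no member's call and ended those of *Bcl2l13*, *Aifm1*, *Casp9*, *Fadd*, *Tnfrsf21*, *E2f1* and *Bag2*. Median scaling gave 521 and 572 probes, against 982 and 1022. The saddle-point background fit was run without negative control statistics, which it does not take. The signal over background limited *Bcl2*, *Bak1* and the dimmer probes of *Bcl2l1*, *Bbc3* and *Bcl2l11*. Of 252 companion list counts recomputed, 185 were within 1.5 times the count given.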
